A study of Mus musculus with 12 samples.

Results

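The clustered protocadherins are the genes of the alpha, beta and gamma protocadherin clusters, which lie side by side on mouse chromosome 18. Members were taken by symbol, as every row whose name begins with Pcdha, Pcdhb or Pcdhg followed by the pattern of the clustered genes. The rule found 59 of the 24015 rows of the table, 15 in the alpha, 22 in the beta and 22 in the gamma cluster, and it used no measured value. RNA was sequenced from nuclei sorted out of mouse hippocampus in 12 libraries, 3 each of groups titled Basal, Early, Late and Reactivated. All mice were ArcCreERT2 x R26R-STOP-floxed eYFP with genotype +/+, so a drug-dependent Cre under the control of Arc, a gene switched on by neuronal activity, marks cells with a fluorescent protein. All received 4-hydroxytamoxifen 1 h before contextual fear conditioning after 24 h in darkness, and mice not killed on that day went back into darkness for a further 48 h. Per the protocol, brains were collected 1.5 to 2 h after the shock session, or on day 5 with or without a return to the fear-inducing cue. The treatment field is the same for all 12 libraries, so the groups rest on the titles, and no label ties a sorting gate (NeuN, Arc and GFP antibodies) to a title. Each replicate is a pool of 10 to 12 mice.

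Clustered protocadherins are cadherin-like adhesion proteins of neurons. Each variable gene has its own promoter, and a neuron switches on a small, largely random choice of them through CTCF and cohesin looping between promoters and distant enhancers. In the alpha and gamma clusters the large variable exon is spliced to constant exons shared by the cluster, whereas a beta gene is a single coding exon. The proteins pair within a membrane and recognise only like combinations on another membrane, which lets neurites of the same cell avoid each other. The C-type genes at the ends of the alpha and gamma clusters (Pcdhac1, Pcdhac2, Pcdhgc3, Pcdhgc4 and Pcdhgc5) are regulated apart from the others and are used more uniformly between neurons.

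Libraries held 4838166 to 11120255 counts, of which 3520 to 12133 fell in the members. Levels are given as normalized counts, the deposited counts after TMM scaling to a common library size. A gene is said to have risen or fallen only where edgeR's quasi-likelihood test gave a Benjamini-Hochberg adjusted p under 0.05 over all 15668 genes tested. Of the 59 members, 56 passed the filter on low counts (13 alpha, 21 beta, 22 gamma), and Pcdha4, Pcdha4-g and Pcdhb1 did not. Pcdha4-g was listed at 0 in all 12 libraries, Pcdha4 had at most 3 counts and Pcdhb1 at most 6 counts in a library. Libraries stood apart within groups, since in Basal, Early and Late the library numbered 3 differed more from the other two than these did from each other. Rn45s, the ribosomal RNA precursor, took 4.72% to 12.2% of counts in the Basal libraries and 6.23% to 12.9% in the Early ones, against 27.9% to 36.5% (Late) and 18.8% to 27.7% (Reactivated).

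Clustered protocadherin RNA was highest in Basal and lower in Late and Reactivated, in every gene of the gamma cluster and in part of the others. The summed gamma level was 5355, 5635 and 5243 normalized counts (Basal), 3454, 3657 and 3925 (Early), 2205, 2103 and 2409 (Late) and 2716, 3026 and 3391 (Reactivated). Every Late library lay below every Reactivated one, every Reactivated one below every Early one, and every Early one below every Basal one. The summed alpha level was 1634, 1709 and 1798 (Basal), 1303, 1463 and 1583 (Early), 1131, 1213 and 1190 (Late) and 926.5, 1190 and 1369 (Reactivated). Here the Early, Late and Reactivated libraries were all under the Basal ones, and Reactivated overlapped both Early and Late. The summed beta level was 1590, 1815 and 1664 (Basal), 1663, 1828 and 1731 (Early), 1697, 1515 and 1407 (Late) and 1203, 1213 and 1315 (Reactivated). Beta sums thus overlapped between Basal, Early and Late, and the Reactivated libraries were the lowest. As a share of the Basal mean, Late stood at 41.4% in gamma, 68.7% in alpha and 91.1% in beta, and Reactivated at 56.3%, 67.8% and 73.6%. In bulk samples, fewer cells that use these genes and less RNA per cell cannot be told apart.

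**Figure D1:**
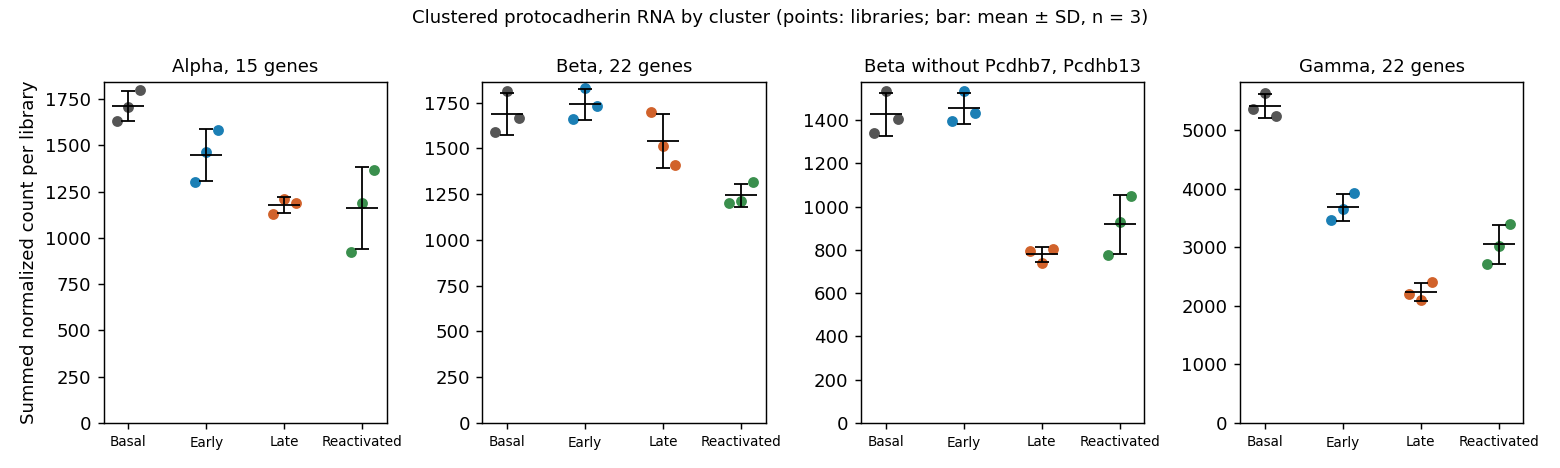
Summed normalized counts (y axis, from 0) of the alpha, beta and gamma clusters and of beta without Pcdhb7 and Pcdhb13, by group. Points are the 3 libraries of each group and bars the mean ± SD; the gamma sums step down from Basal (mean 5411) through Early (3678) and Reactivated (3044) to Late (2239).

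Levels per kilobase of first exon, which in the alpha and gamma clusters is the variable exon, also differed between clusters. In Basal the median level per kilobase was 47.6 normalized counts over 12 alpha genes, 18.0 over 21 beta genes and 81.3 over 22 gamma genes. Pcdhga11 was the highest gamma gene at 146.1 per kilobase and Pcdhga1 the lowest at 17.7. The lengths (2346 to 8695 bases over 57 members) come from a later annotation than the one used for the deposited counts. Each is the longest first exon annotated for the gene. Some beta genes had long ones (Pcdhb14 8695, Pcdhb19 7138 and Pcdhb22 6609 bases), which lowers their level per kilobase. The part of this choice in the cluster medians was not tested. First exons share stretches with other genes. A median of 6.1% of the 50-base windows of a member's first exon also occur in another gene, at most 83.0% (Pcdha4), while 8 members share none. How reads from shared stretches and shared constant exons were assigned is not given in the sources used here.

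Late against Basal gave the largest number of calls. Of the 56 tested members 41 fell (73.2%) and 2 rose, where 23.6% of all genes tested fell and 25.4% rose (49.1% together). The median log2 difference of the members was -0.91, and that of all genes -0.03. All 22 gamma genes fell, with 13 of 21 beta genes and 6 of 13 alpha genes. In 43 members the 3 Late libraries were all below the 3 Basal ones, which held for 31.2% of all genes. With the Rn45s share as a covariate 2 members were called in place of 43. Over all genes 123 were then higher and 82 lower, in place of 3981 and 3705. The median difference was -0.69 for the members and 0.02 for all genes in that setting. The Rn45s share was higher in every Late library than in any Basal one, so its part and that of the group cannot be told apart.

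Reactivated against Basal gave 31 calls, all lower, which is 55.4% of the tested members, where 18.8% of all genes fell and 39.4% were called in either direction. The median member difference was -0.66 against 0.02 for all genes. The fallen genes were 21 of 22 gamma genes (all but Pcdhga11, at -0.37 ± 0.14, adjusted p = 0.0545), 5 alpha and 5 beta genes. No member rose, at an unadjusted p under 0.05 or by DESeq2 either, while 20.6% of all genes rose. The count was 3 with the Rn45s covariate and 8 on the deposited values without scaling. Over all genes 410 were higher and 215 lower with the covariate, and 1138 and 1126 on the deposited values, in place of 3228 and 2946.

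Early against Basal gave 4 calls, all of them falls in the gamma cluster. Pcdhga11, Pcdhga12, Pcdhgb2 and Pcdhgc4 fell, which is 7.14% of the tested members, where 2.66% of all genes fell, 3.36% rose and 6.03% were called in either direction. The median member difference was -0.36 against 0.01 for all genes. All 22 gamma genes had a log2 difference below 0, from -0.89 to -0.12, and in 21 of them the Early libraries were all below the Basal ones (11.5% of all genes). No alpha or beta gene was called, with 2 alpha and 0 beta genes at an unadjusted p under 0.05, and 19 gamma genes at that level. DESeq2 called 9 members, all lower. The number was sensitive to single libraries. It was 0 without the Basal library numbered 2 or the Early library numbered 1 or 2, 1 without the Basal library numbered 1, and 11 without the Reactivated library numbered 1. Falls over all genes moved as well, from 417 to 233, 228, 244, 279 and 571 in that order. The median member difference was -0.32, -0.24, -0.37, -0.41 and -0.35. With the replicate number as a block 6 were called, and on the values as deposited 0. The Rn45s shares of the groups overlapped, and 8 were called with that share as a covariate.

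Between the later groups, Reactivated against Late gave 11 rises (10.3% of all genes rose) and 2 falls (12.3% of all genes fell). The rises were 8 gamma genes (Pcdhga3, Pcdhga5, Pcdhga8, Pcdhga10, Pcdhga11, Pcdhgb2, Pcdhgb6 and Pcdhgb8), Pcdha9, Pcdhb10 and Pcdhb21. The falls were Pcdhb7 and Pcdhb13, the pair that was high in Late. The total of 13 was 6 and 4 without the Late library numbered 1 or 2, 8 without the Reactivated library numbered 3, and 3 on the deposited values. Rises over all genes went from 1615 to 809, 824, 1365 and 877 in that order, and falls from 1926 to 1326, 1359, 1696 and 869. Late against Early gave 30 falls and 2 rises among the members, beside 20.4% and 22% of all genes (42.3% together), and the falls were 15 gamma, 12 beta and 3 alpha genes. In 39 members the Late libraries were all below the Early ones and in 2 all above, as in 30.4% and 29.5% of all genes. The 7 gamma genes without a call there were Pcdhga1, Pcdhga4, Pcdhga11, Pcdhga12, Pcdhgb7, Pcdhgc3 and Pcdhgc4. Reactivated against Early gave 13 falls (12.7% of all genes fell, 26.2% were called), 7 of them beta genes, with no rise at an unadjusted p under 0.05 or by DESeq2. In 18 members the Reactivated libraries were all below the Early ones, against 19.9% of all genes. The count of 13 was 3, 5, 7, 7, 8 and 8 without the Early library numbered 2 or 1, the Reactivated library numbered 1 or 2, the Late library numbered 1 or the Basal library numbered 2. Falls over all genes went from 1988 to 920, 938, 1659, 1640, 1733 and 1820 in that order. With the Rn45s covariate the count was 0 in Late against Early and in Reactivated against Early, and 5 in Reactivated against Late. Calls over all genes also fell with it, to 61 higher and 33 lower in Late against Early. Reactivated against Early then had 0 calls over all genes, and Reactivated against Late 763 higher and 1097 lower.

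**Figure D2:**
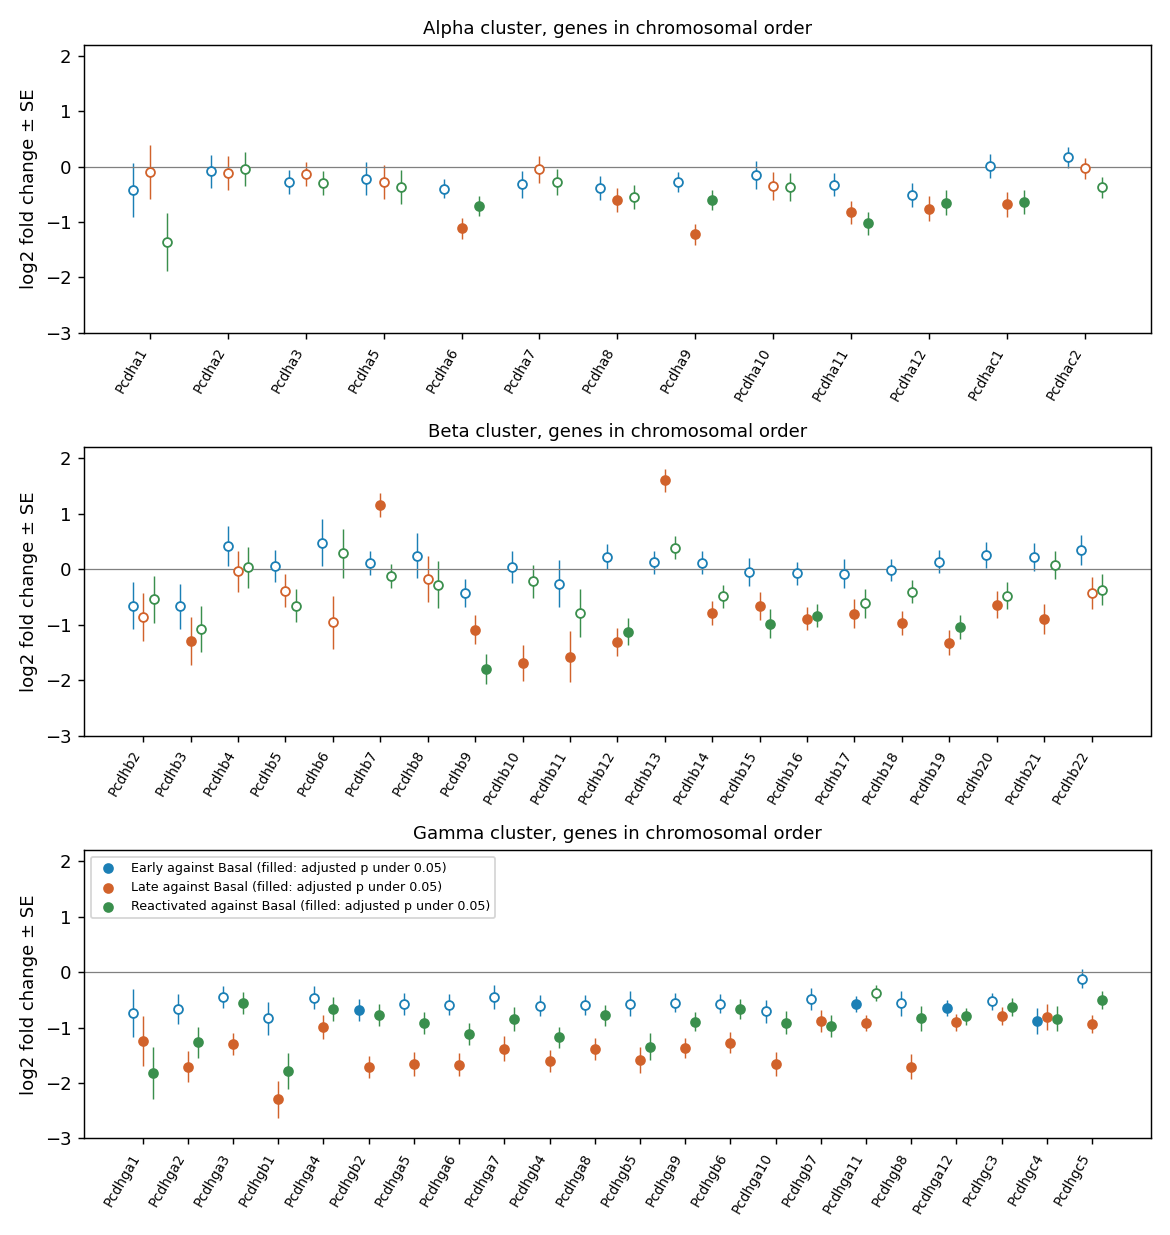
Log2 fold change ± SE (y axis) of each tested gene against Basal in Early, Late and Reactivated, with genes in chromosomal order within the alpha, beta and gamma clusters. Filled points passed an adjusted p under 0.05; all 22 gamma genes are below 0 in all 3 comparisons, and Pcdhb7 and Pcdhb13 stand above 0 in Late.

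Within the gamma cluster, the A and B genes carry the variable exons of which a neuron uses few. Pcdhgb4 was at 193, 205 and 222 (Basal), 124, 142 and 142 (Early), 64.9, 74.0 and 65.4 (Late) and 71.6, 82.7 and 118 (Reactivated). Its groups were separate except for Late and Reactivated, and it fell by 1.61 ± 0.20 in Late (3.04-fold, adjusted p = 1.73e-05) and by 1.18 ± 0.19 in Reactivated (adjusted p = 0.000457). Pcdhga6 was at 222, 202 and 189 (Basal), 125, 137 and 144 (Early), 68.5, 66.1 and 57.9 (Late) and 119.8, 68.6 and 95.9 (Reactivated). No 2 groups overlapped, although the lowest Reactivated library was within 1 normalized count of the highest Late one. The fall of Pcdhga6 was 3.18-fold in Late (log2 -1.67 ± 0.21, adjusted p = 1.65e-05) and 2.17-fold in Reactivated (log2 -1.12 ± 0.20, adjusted p = 0.000782). Pcdhgb2 was at 227, 208 and 240.3 (Basal), 135, 127 and 159 (Early), 67.3, 48.9 and 87.8 (Late) and 142, 135 and 119 (Reactivated). In this gene the Reactivated libraries overlapped the Early ones and lay above all Late ones. It fell by 1.71 ± 0.20 in Late against Basal (adjusted p = 1.23e-05) and rose by 0.94 ± 0.21 in Reactivated against Late (adjusted p = 0.00436).

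The size of the Late difference varied along the gamma cluster. Pcdhgb1 showed the lowest value, falling 4.91-fold from a mean of 221.4 ± 21.7 to 44.6 ± 15.1 (SD, n = 3), log2 -2.29 ± 0.33, adjusted p = 6.7e-05. Pcdhga5 fell from 263.9 ± 19.7 to 83.3 ± 4.97 and Pcdhga9 from 306.5 ± 50.4 to 117.6 ± 3.90. Pcdhgb8, annotated in RefSeq as a transcribed pseudogene, fell from 260.9 ± 32.0 to 79.9 ± 14.1, log2 -1.70 ± 0.23. The genes at the far end of the cluster, among which Pcdhgb8 lies, otherwise had smaller log2 differences, of -0.79 to -0.94 for Pcdhgb7, Pcdhga11, Pcdhga12, Pcdhgc3, Pcdhgc4 and Pcdhgc5. Across the 22 genes, chromosomal order and the Late log2 difference had a Spearman rho of 0.56, and the rho was 0.44 in Reactivated and 0.21 in Early. These are descriptions across genes of the same libraries. As sums, Late stood at 41.1% of Basal in the A genes, 36.1% in the B genes and 54.9% in the 3 C-type genes.

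The 3 gamma C-type genes all fell in Late and in Reactivated against Basal. Pcdhgc4, needed for the survival of cortical interneurons in mice, was at 139, 134 and 197 (Basal), 80.4, 86.2 and 88.5 (Early), 78.1, 97.8 and 92.4 (Late) and 103, 59.8 and 102 (Reactivated). All 9 libraries outside Basal lay below all Basal ones and overlapped among themselves. Its fall was of like size in Early (log2 -0.89 ± 0.23, adjusted p = 0.0319), Late (-0.81 ± 0.23, adjusted p = 0.0095) and Reactivated (-0.84 ± 0.23, adjusted p = 0.0109). Pcdhgc5 was at 374, 373 and 317 (Basal), 349.7, 334 and 297 (Early), 174, 145 and 233 (Late) and 233, 247 and 268 (Reactivated). Early overlapped Basal (log2 -0.12 ± 0.16, adjusted p = 0.846), and the gene fell in Late (-0.94 ± 0.17, adjusted p = 0.000413) and in Reactivated (-0.50 ± 0.17, adjusted p = 0.0273). Pcdhgc3, which promotes dendrite branching in mouse cortex, was at 220.2, 253 and 232 (Basal), 159.7, 157 and 172 (Early), 133, 144 and 131 (Late) and 118, 166 and 171 (Reactivated). Its Basal libraries lay above all others, and it fell by 0.79 ± 0.16 in Late (adjusted p = 0.0012) and by 0.62 ± 0.16 in Reactivated (adjusted p = 0.00814). Whether these courses differ from gene to gene was not tested.

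**Figure D3:**
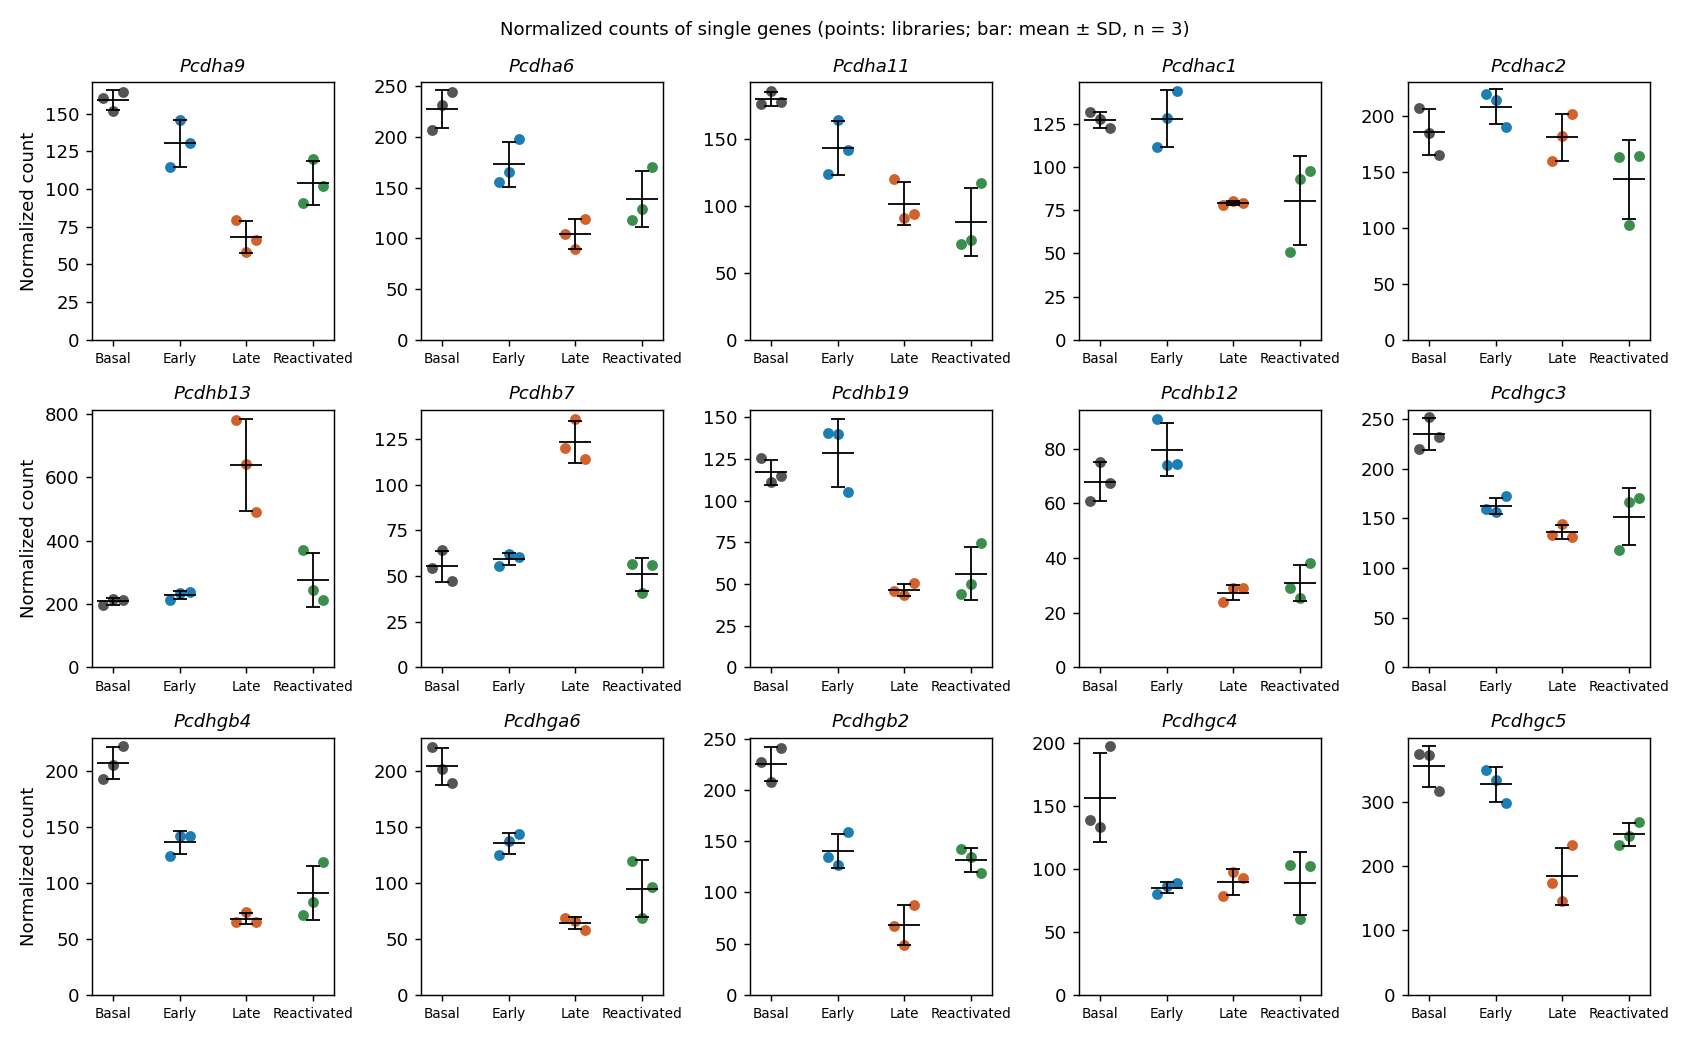
Normalized counts (y axis, from 0, own scale in each panel) of 15 genes in the 12 libraries, with points for libraries and bars for mean ± SD of 3. Pcdhgc4 drops already in Early, Pcdhgc5 stays at 297 to 350 in Early and lies lower in Late, and Pcdhb13 is highest in Late at 491 to 782.

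In the alpha cluster 6 of 13 tested genes fell in Late and 5 in Reactivated against Basal. Pcdha9 was at 161, 152 and 164 (Basal), 115, 146 and 130.3 (Early), 79.3, 58.1 and 66.3 (Late) and 90.9, 119.7 and 102 (Reactivated). Late was the lowest group without overlap, at log2 -1.22 ± 0.19 against Basal (2.34-fold, adjusted p = 0.000112), and the gene rose by 0.62 ± 0.19 in Reactivated against Late (adjusted p = 0.0296). Pcdha6 was at 207, 231 and 244 (Basal), 156, 166 and 198 (Early), 104, 89.8 and 119.5 (Late) and 118, 128 and 171 (Reactivated). Its Basal libraries lay above all others, and Late and Reactivated overlapped. It fell by 1.12 ± 0.19 in Late (adjusted p = 0.000208) and by 0.71 ± 0.18 in Reactivated (adjusted p = 0.00751). Pcdha11 was at 176, 186 and 178 (Basal), 124, 164 and 142 (Early), 120.1, 91.2 and 94.3 (Late) and 71.6, 74.8 and 117 (Reactivated). It fell by 0.82 ± 0.21 in Late (adjusted p = 0.00479) and by 1.03 ± 0.21 in Reactivated (adjusted p = 0.00195), with Reactivated overlapping Late. Pcdha12 fell in both (log2 -0.76 ± 0.23 and -0.65 ± 0.22), and Pcdha8 fell in Late (-0.60 ± 0.22, adjusted p = 0.0318) and had an adjusted p of 0.0557 in Reactivated. No call in any of the 6 comparisons was made for 6 of the 13 tested alpha genes, Pcdha1, Pcdha2, Pcdha3, Pcdha5, Pcdha7 and Pcdha10. Their Late log2 differences against Basal ran from -0.35 to -0.05. The largest differences among them were those of Pcdha1 in Reactivated, at -1.36 ± 0.53 against Basal (adjusted p = 0.0525) and -1.26 ± 0.54 against Late (adjusted p = 0.107).

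The 2 alpha C-type genes differed in their values. Pcdhac1 was at 132, 128 and 123 (Basal), 112, 128 and 144 (Early), 78.1, 80.6 and 79.4 (Late) and 50.9, 93.3 and 97.7 (Reactivated). All Late and Reactivated libraries lay below all Basal and Early ones, and it fell by 0.68 ± 0.22 in Late (adjusted p = 0.0201) and by 0.64 ± 0.22 in Reactivated (adjusted p = 0.0324). Pcdhac2, the alpha gene that spaces serotonergic axons in mice, was at 207, 185 and 166 (Basal), 220.2, 215 and 190.4 (Early), 159.7, 182 and 202 (Late) and 164, 103 and 164 (Reactivated). Basal, Early and Late overlapped (Late against Basal log2 -0.03 ± 0.19, adjusted p = 0.902). Its only call was a fall of 0.54 ± 0.19 in Reactivated against Early (adjusted p = 0.0473).

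In the beta cluster most genes were lower in Late, and Pcdhb13 and Pcdhb7 were higher. Pcdhb13 was at 196, 217 and 213 (Basal), 213, 233 and 236 (Early), 782, 641 and 491 (Late) and 372, 244 and 211 (Reactivated). Every Late library lay above all others, while Reactivated overlapped Basal and Early through its library at 211 and was above them in the other two. It rose 3.05-fold in Late against Basal (log2 1.61 ± 0.21, adjusted p = 2.48e-05) and fell by 1.22 ± 0.20 in Reactivated against Late (adjusted p = 0.000594). The gene took 12.3% ± 0.437 of all beta counts in Basal and 41.1% ± 5.68 in Late (SD, n = 3). Pcdhb7, described because it rose, was at 54.4, 64.0 and 47.3 (Basal), 55.3, 62.1 and 60.1 (Early), 120.1, 136 and 114 (Late) and 56.4, 40.5 and 56.0 (Reactivated). Its 3 Late libraries stood above the other 9, at log2 1.16 ± 0.21 against Basal (2.24-fold, adjusted p = 0.00045) and with a fall of 1.28 ± 0.21 in Reactivated against Late (adjusted p = 0.000584). Of the 50-base windows of the first exon, 1.8% in Pcdhb13 and 8.6% in Pcdhb7 occur in another gene.

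Other measures of the libraries are given beside the Pcdhb13 values. Within Late its level was lowest in the library numbered 3, which had the lowest Rn45s share of the 3 (27.9%), and within Reactivated it was highest in the library numbered 1, which had the highest share (27.7%). The remaining libraries did not keep that order, with shares of 35.7% and 36.5% at 782 and 641 in Late and of 18.8% and 20.7% at 244 and 211 in Reactivated. The summed level of 9 microglia markers was 9762, 7764 and 5691 in Late and 2120, 1143 and 852.6 in Reactivated, in the same order of libraries as Pcdhb13, against 684.7 to 833.5 in Basal and Early. The 11 oligodendrocyte markers summed to 9989, 7930 and 4777 in Late and 7791, 3503 and 2960 in Reactivated, again in the order of Pcdhb13. That order was not particular to these lists. Granule cell markers summed to 7179, 6374 and 4909 in Late and 7363, 4189 and 3892 in Reactivated. The CA3 and CA2 and the oligodendrocyte precursor sums kept the order too. The CA1, interneuron, neuron, astrocyte, and vessel and choroid plexus sums did not. The part of each in the result was not tested. With the Rn45s share as a covariate the Late log2 difference of Pcdhb13 was 0.38 (adjusted p = 0.739), and that of Pcdhb7 was 0.94 (adjusted p = 0.475). Scaled by library totals alone, Pcdhb13 stayed called at 0.75 while Pcdhb7, at 0.31, was not.

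**Figure D4:**
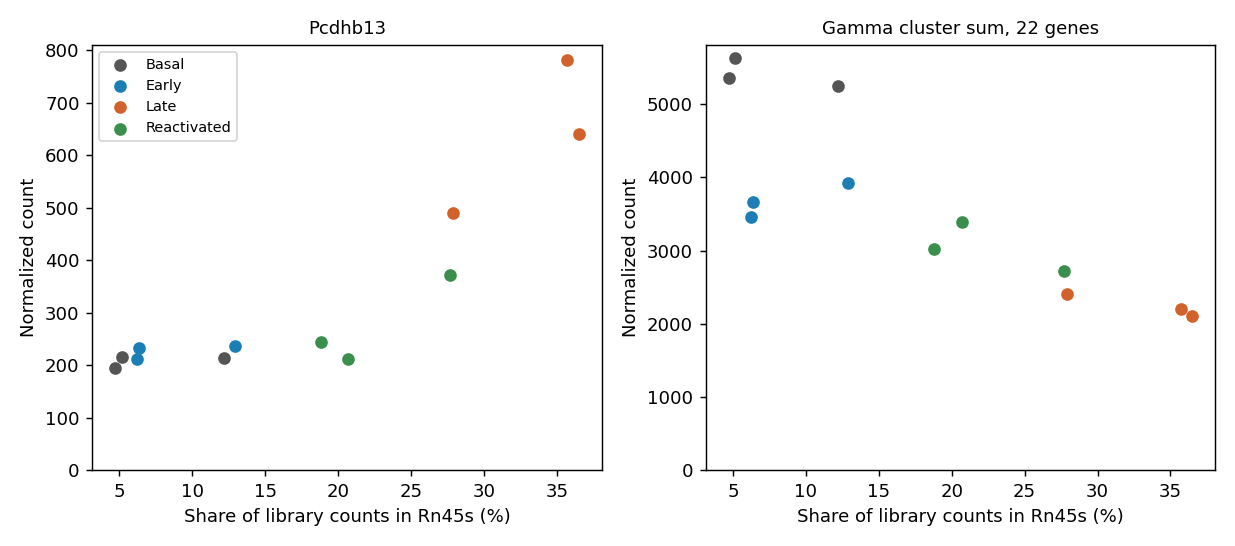
Normalized count of Pcdhb13 (left) and the summed gamma cluster (right) on the y axes, from 0, against the percent of a library's counts in Rn45s on the x axis. Each point is 1 of 12 libraries, coloured by group; Pcdhb13 stays between 196 and 244 up to a share of about 20.7% and is at 372 to 782 above it, and the gamma sum is 5243 to 5635 in Basal at shares that overlap those of Early.

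The other beta genes went the other way. Without Pcdhb7 and Pcdhb13, the beta sum averaged 1426 ± 99.4 (Basal), 1454 ± 71.3 (Early), 778.5 ± 34.9 (Late) and 917.4 ± 136.8 (Reactivated), with SDs over 3 libraries. Pcdhb19 was at 126, 111 and 115 (Basal), 141, 140.1 and 105 (Early), 45.6, 43.6 and 50.4 (Late) and 44.1, 50.2 and 74.6 (Reactivated). Pcdhb12 was at 60.9, 75.2 and 67.4 (Basal), 90.8, 73.8 and 74.3 (Early), 24.0, 29.1 and 28.9 (Late) and 28.9, 25.5 and 38.2 (Reactivated). In both genes Late and Reactivated overlapped and lay below all Basal and Early libraries. Pcdhb19 fell by 1.32 ± 0.23 in Late (2.50-fold, adjusted p = 0.000284) and by 1.04 ± 0.22 in Reactivated (adjusted p = 0.00255). Pcdhb12 fell by 1.31 ± 0.25 in Late (adjusted p = 0.000636) and by 1.13 ± 0.24 in Reactivated (adjusted p = 0.00274).

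Pcdhb9 and Pcdhb10 parted in the Reactivated group. Pcdhb9 averaged 75.5 ± 10.5 in Basal, 35.3 ± 3.50 in Late and 21.5 ± 6.15 in Reactivated, and its Reactivated fall of 3.49-fold (log2 -1.80 ± 0.27, adjusted p = 0.000274) was the largest called fall among beta genes in that comparison. Pcdhb10 averaged 51.4 ± 16.9 in Basal, 15.5 ± 4.46 in Late and 43.7 ± 4.96 in Reactivated, with a fall of 1.69 ± 0.33 in Late (adjusted p = 0.000731) and a rise of 1.48 ± 0.33 in Reactivated against Late (adjusted p = 0.00501). Pcdhb21 also fell in Late (-0.90 ± 0.27) and rose from there in Reactivated (0.97 ± 0.27, adjusted p = 0.0193). The further beta genes that fell in Late were Pcdhb3, Pcdhb11, Pcdhb14, Pcdhb15, Pcdhb16, Pcdhb17, Pcdhb18 and Pcdhb20, at -1.58 (Pcdhb11) to -0.64 (Pcdhb20). Pcdhb6 (-1.44 ± 0.46, adjusted p = 0.0219) and Pcdhb22 (-0.77 ± 0.28, adjusted p = 0.0364) were called in Late against Early alone. Pcdhb2, Pcdhb4, Pcdhb5 and Pcdhb8 were called in none of the 6 comparisons.

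**Figure D5:**
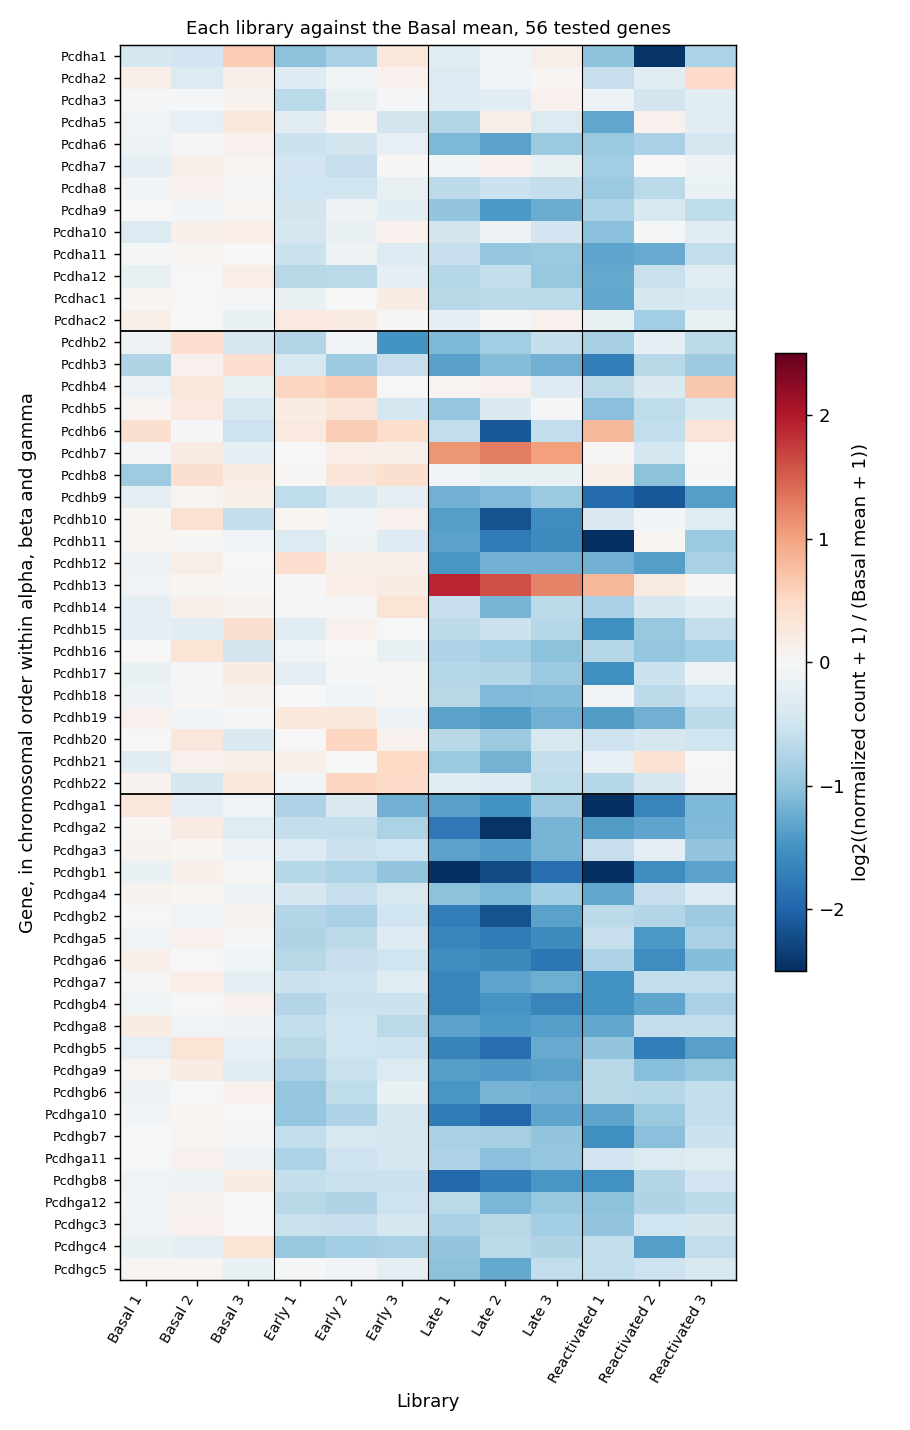
Log2 of (normalized count + 1) in each of the 12 libraries relative to the Basal mean, for the 56 tested genes in chromosomal order within the alpha, beta and gamma clusters (red higher, blue lower, colour range clipped at 2.5 either way). The gamma block is blue in all Early, Late and Reactivated libraries for nearly all genes, and Pcdhb7 and Pcdhb13 are red in Late.

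Taking any difference among the 4 groups, 41 of the 56 tested members passed (73.2%), where 58.6% of all genes did. They were all 22 gamma genes, 14 of 21 beta genes and 5 of 13 alpha genes. Basal held the highest mean in 22 of 22 gamma, 11 of 13 alpha and 8 of 21 beta genes. Of the other beta genes, 11 were highest in Early and 2 (Pcdhb7 and Pcdhb13) in Late. Late held the lowest mean in 19 gamma, 6 alpha and 15 beta genes.

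The non-clustered delta protocadherins, related adhesion genes outside the clusters, went in both directions. Their summed level averaged 9738 (Basal), 9665 (Early), 9742 (Late) and 9550 (Reactivated). In Late against Basal 2 of 11 rose (Pcdh7, log2 1.16 ± 0.15, and Pcdh10, 0.80 ± 0.14) and 4 fell, including Pcdh20 (-1.79 ± 0.26) and Pcdh17 (-1.09 ± 0.17), with a median of -0.17. In Early against Basal Pcdh17, Pcdh8 and Pcdh11x fell, where 2.66% of all genes fell, and the list median was -0.35. The clustered members had a median of -0.36 there. In Reactivated against Basal 2 rose and 4 fell. Of all genes 25.4% rose and 23.6% fell in Late against Basal, and 20.6% and 18.8% in Reactivated against Basal.

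Factors that shape or silence the clusters were also counted. In Late against Basal 3 of 23 rose (25.4% of all genes) and 8 fell (23.6%), with a median of -0.31. In Reactivated against Basal 1 rose (20.6% of all genes) and 8 fell (18.8%). Smchd1, a chromatin protein that represses protocadherin clusters in mice, averaged 563 ± 82.0 (Basal), 477 ± 78.5 (Early), 162 ± 11.7 (Late) and 277 ± 9.92 (Reactivated), a fall of 1.79 ± 0.16 in Late (adjusted p = 1.17e-06). The cohesin genes Stag1 (-0.92 ± 0.12) and Pds5b (-0.80 ± 0.12) and the cohesin loader Nipbl (-1.10 ± 0.18) fell in Late as well. Rest, a repressor of neuronal genes, averaged 51.3 ± 11.5 in Basal and 546 ± 172 in Late, a rise of 3.38 ± 0.42 (adjusted p = 1.93e-05). Dnmt3a (0.82 ± 0.14, adjusted p = 0.000288) and Dnmt1 (0.52 ± 0.20, adjusted p = 0.0376) rose in Late too. Ctcf was not called there (0.16 ± 0.14, adjusted p = 0.369). In Early against Basal Stag1 was the gene called, at -0.46 ± 0.12 (adjusted p = 0.0297), where 2.66% of all genes fell and 3.36% rose.

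Among 22 genes for partners and cleavage of the proteins, Prkca, a protein kinase C, and Nlgn1, a neuroligin, rose in Early against Basal (1.05 ± 0.14 and 0.66 ± 0.13). In that comparison 3.36% of all genes rose. In Late against Basal 6 rose, near the 25.4% of all genes that did, and 3 fell (23.6% of all genes; list median 0.04), with Psen2, a subunit of the protease that cuts these proteins, at 1.57 ± 0.25 and the kinase C substrate Marcks at 1.49 ± 0.27. In Reactivated against Basal 6 rose (20.6% of all genes) and 2 fell (18.8%). Of 16 tested neighbours on the chromosome, 6 rose (25.4% of all genes) and 1 fell (23.6%) in Late against Basal, with a median of 0.40 against -0.35 in alpha, -0.86 in beta and -1.38 in gamma genes. Ik rose by 0.79 ± 0.17, Rell2 by 1.16 ± 0.30, Tmco6 by 0.82 ± 0.24 and Fchsd1 by 0.79 ± 0.25. In Reactivated against Basal 6 neighbours rose (20.6% of all genes), led by Zmat2 at 2.24 ± 0.37, and in Early against Basal 0 were called and 0 had an unadjusted p under 0.05.

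Markers of cell types moved with the same groups, and their part in the protocadherin differences was not tested. The 14 granule cell markers summed to 14330 to 19860 in Basal, against 4512 to 4907 (Early), 4909 to 7179 (Late) and 3892 to 7363 (Reactivated). Of these markers 13, 11 and 13 fell and 0, 1 and 1 rose against Basal in those 3 groups. Their median log2 differences were -2.15, -2.82 and -2.19. The 10 CA1 markers summed to 1323 to 1879 in Basal and 3566 to 5602 in the other groups, with 8, 9 and 9 rising, and of 11 markers of CA3 and CA2, 5, 7 and 9 rose. Of 18 interneuron markers 5, 8 and 10 fell and 3, 1 and 3 rose. Of all genes tested, 2.66% fell and 3.36% rose in Early against Basal. The shares were 23.6% and 25.4% in Late, and 18.8% and 20.6% in Reactivated. The 8 neuron markers averaged 24160 (Basal), 28110 (Early), 32070 (Late) and 37540 (Reactivated), and 3, 4 and 5 of them rose. Among non-neuronal lists, 3 of 10 oligodendrocyte markers rose and 5 fell in Late, and 3 of 6 microglia markers rose (led by Itgam, 13.4-fold) and 3 fell. The astrocyte sum averaged 6303 in Basal and 2811 in Late, the vessel and choroid plexus sum 1500 and 630.3, and the oligodendrocyte precursor sum 135.9 and 84.9, against 5740, 1752 and 368.5 in Reactivated. The Reactivated libraries were uneven, at 8698, 3874 and 4647 for astrocytes, where Basal ran from 4717 to 7380. They were at 592, 259.6 and 254 for oligodendrocyte precursors and at 1921, 1193 and 2143 for vessel and choroid plexus. No marker was at 0 in all 12 libraries.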

How the data were processed

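Nuclei were fixed in 1% paraformaldehyde, and the labels name both a stranded total RNA kit (15 PCR cycles) and SmartSeq2 for the libraries. Nuclear RNA of 12 libraries was analysed from a table of read counts per gene symbol. The counts were made and deposited by the authors. The table's name calls them normalized, but the values are whole numbers with unequal library totals and were treated as raw counts. The submitters' processing notes name Bowtie2 2.0, Cufflinks 2.2, DESeq2 and the build mm9 without their roles. How reads were counted, with which annotation and strand handling, is not given in the sources used here, so reads of a gene and an antisense transcript cannot be told apart.

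Genes reaching 10 counts in 3 or more of the 12 libraries were tested with the quasi-likelihood test of edgeR 4.0.16 (R 4.3.3, TMM scaling, 4 group means, two-sided, Benjamini-Hochberg adjustment over 15668 genes, threshold 0.05). The procedure was tested on simulated counts with independent replicates, the same dispersion for all genes and changes in Late alone. That setting holds neither libraries that stand apart nor Rn45s shares that go with the groups, so it does not bear on them. Totals of 4838166 to 11120255 counts set the precision of low genes. Replicates differed beyond sampling noise (chi-square per gene of 2.95 to 40.71, where noise gives about 1). Same-numbered Early and Basal libraries deviated together (correlations of 0.31, 0.132 and 0.461, each over 0.1). Deviations were taken from the mean of the 3 libraries of a group, so these correlations are not independent. The libraries numbered 3 stood apart in both groups, so a pairing of those numbered 1 and 2 cannot be read from them. Of 18 correlations in all, 4 were over 0.1. The remaining one was 0.153, for the libraries numbered 3 of Reactivated and Late, beside 0.057 and 0.064 for those numbered 1 and 2. Log2 values are ± SE, means ± SD.

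The members and the 14 gene lists (4 of related genes, 10 of cell type markers) were chosen with earlier results of these data known. Named genes were the C-type genes, the 6 members of each cluster with the lowest p for any difference among groups, members called in a pair of groups, and up to 4 called genes of each other list by p. Values in every library are given for the C-type genes and the 3 members of each cluster with the lowest such p, with Pcdhb7 added after its values were seen. Nipbl, Dnmt3a, Dnmt1 and Ctcf in Late were also named after their values were seen. A gene that this rule named is not reported here. First exons, biotypes and gene order came from later annotations than the mm9 build, and no member's sequence is shown. Alternatives were other scalings (RLE, upper quartile, totals, none), other filters, DESeq2 1.42.0, 2 groups alone, a replicate block, the Rn45s share as covariate and leaving out libraries.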

Additional observations from a re-analysis of the deposited data

How the results depend on the processing

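Of 136 calls (a member in a pair of groups), 136 held with RLE or upper quartile factors or DESeq2, and 133 with library totals alone. Without scaling 86 held, with the Rn45s share as covariate 13, and with no filter on low counts 126. The counts of called members moved by more than 1.5 times in these settings. Early against Basal (4) went to 0 as deposited, 2 with no filter, 9 with DESeq2 and 8 with the Rn45s covariate. With that covariate Late against Basal (43) went to 2, Reactivated against Basal (31) to 3, Late against Early (32) to 0, Reactivated against Early (13) to 0, Reactivated against Late (13) to 5 and any difference (41) to 12. Calls over all genes fell in these 5 pairs too, to 123 higher and 82 lower in Late against Basal and to 0 in Reactivated against Early. Library totals alone gave 50 in Late against Early, 28 in Reactivated against Early and 21 in Reactivated against Late. Values as deposited gave 8 in Reactivated against Basal, 6 in Reactivated against Early and 3 in Reactivated against Late, and fitting 2 groups alone gave 4 in Reactivated against Early. Leaving out a replicate gave 0 to 11 in Early against Basal, 35 to 43 in Late against Basal, 26 to 33 in Reactivated against Basal, 26 to 37 in Late against Early, 3 to 15 in Reactivated against Early, 4 to 17 in Reactivated against Late and 37 to 43 for any difference. Falls over all genes in Early against Basal ran from 228 to 571 when a replicate was left out. Apart from the covariate's own construction, which adds a measure that goes with the groups, the cause of these shifts was not tested.

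Among the alternatives run, the sign of a called difference turned only with the Rn45s covariate, in 11 of 136. In Late against Basal these were Pcdhb11 (0.36), Pcdhb20 (0.40), Pcdhga1 (1.05) and Pcdhgc5 (0.01), and in Reactivated against Basal Pcdhgc5 (0.05). In Late against Early they were Pcdhb11 (0.54), Pcdhb20 (0.09), Pcdhga2 (0.33), Pcdhga8 (0.03), Pcdhgb1 (0.07) and Pcdhgc5 (0.09). Library totals alone shifted the median of all genes in Late against Basal to -0.87 and that of the members to -1.76, a gap of -0.89 beside -0.88 with TMM, and moved the split of all genes from 3981 higher and 3705 lower to 1401 and 9062. The replicate block gave 6 calls in Early against Basal, 42 in Late against Basal, 33 in Reactivated against Basal, 33 in Late against Early, 12 in Reactivated against Early and 13 in Reactivated against Late, and lost 3 of the 136 calls. Without both libraries numbered 3 of Basal and Early, a setting chosen after seeing the data, the counts were 4, 38, 32, 28, 11 and 14 in that order. At this depth the 3 members under the filter, with at most 6 counts in a library, gave no test.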
